A study of Mus musculus with 8 samples.

Results

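The genes described here are 10 that mark the myeloid branch of blood formation at the progenitor stage: Mpo, Elane, Prtn3, Ctsg, Cebpa, Cebpe, Csf1r, Csf3r, Gfi1 and Irf8. Every probe carrying one of these names, or the older name Ela2 for Elane, was taken. That gave 13 probes for 9 of the 10 genes, out of 28407 gene names and 41048 probes with a value on all 8 arrays. Cebpe is not analysed here, since no probe carried its name. Testing required a signal well above background in both replicates of some group, which held for 12 of the 13 probes and for 32775 probes in all; the Csf3r probe did not meet this, and its levels are described only. Cebpa and Irf8 had 2 probes each and Csf1r had 3, and the brightest of them by mean level, called the main probe, stands for the gene unless another is named.

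Myeloid progenitors arise from haematopoietic stem cells (HSC) and commit to granulocytes or monocytes. Mpo encodes myeloperoxidase, and Elane, Prtn3 and Ctsg encode neutrophil elastase, proteinase 3 and cathepsin G, serine proteases that are packed with it into primary granules at the promyelocyte stage. Transcription factors drive this step: C/EBP alpha (Cebpa) is needed for granulocyte and monocyte progenitors, Gfi1 is a repressor that favours neutrophils, and Irf8 favours monocytes and dendritic cells. The receptors for M-CSF (Csf1r) and G-CSF (Csf3r) carry the growth factor signals for monocytes and neutrophils.

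RNA came from donor-derived mouse HSC sorted by flow cytometry out of transplanted mice. The 4 groups were E47 knockout (KO) HSC from secondary recipients, wild-type (WT) HSC from secondary recipients, KO HSC from primary recipients and WT HSC from primary recipients, with 2 one-colour arrays each. E47 is a basic helix-loop-helix factor made from the gene Tcf3. The labels name no strain, age, sort gate, cell number or kind of knockout allele. They also do not say whether both arrays of a group held separate cell samples, so the p-values rest on a spread that may be technical. The cDNA of the sorted cells was copied by a global PCR before labelling with Cy3. The level of a probe is log2 of its processed signal over the array's own 75th percentile of signal.

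Between 72.2 and 90.7% of spots were well above background on 6 arrays. The figure was 35.4% on replicate 2 of KO primary recipients and 41.9% on replicate 2 of WT primary recipients, which are called the 2 sparse arrays. The 75th percentile signal was 19.3 and 34.9 on these, against 319 to 847 on the others, yet their summed signals of 20679161 and 48056239 were near or within the range of 23758468 to 55678839 on the others. Scaling to the 75th percentile therefore sets bright probes high on the sparse arrays, so the main changes are also given without them. All 4 WT arrays shared 1 of the 3 slides and each KO group filled another, so in KO against WT the genotype and the slide cannot be told apart. The 2 probes of Tcf3 were well above background on 8 and 7 arrays; the labels do not say which exons the knockout removes, and these probes therefore check nothing about genotype. Of 16 genes listed as HSC markers, 16 were well above background on every secondary array and 10 to 15 on the primary arrays. The list also holds Ptprc, Cd34, Flt3 and Cd48, and the count does not test the purity of the sorted cells.

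The promoters of the 4 granule enzyme genes are shown with that of Csf3r because they share a short motif. The sequences are RefSeq's, in GRCm38.p6, from 250 bases before to 50 bases after the gene's start. Of the 2 entries that the table lists for Gfi1 and for Irf8, the first is used in the counts. Capitals mark the hexamer GAGGAA, a core of sites bound by the myeloid factor PU.1, and E-boxes (CANNTG), the motif bound by E47 and other helix-loop-helix proteins. Both motifs were searched on both strands, and no site of one overlapped a site of the other.
Mpo, chr11:87793534-87793833, plus strand: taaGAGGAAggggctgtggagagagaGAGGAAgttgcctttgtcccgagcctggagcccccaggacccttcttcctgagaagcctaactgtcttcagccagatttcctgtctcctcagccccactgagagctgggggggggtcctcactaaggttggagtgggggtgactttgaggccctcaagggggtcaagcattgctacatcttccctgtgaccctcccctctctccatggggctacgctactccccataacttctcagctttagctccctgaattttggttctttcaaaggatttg
Elane, chr10:79886062-79886361, plus strand: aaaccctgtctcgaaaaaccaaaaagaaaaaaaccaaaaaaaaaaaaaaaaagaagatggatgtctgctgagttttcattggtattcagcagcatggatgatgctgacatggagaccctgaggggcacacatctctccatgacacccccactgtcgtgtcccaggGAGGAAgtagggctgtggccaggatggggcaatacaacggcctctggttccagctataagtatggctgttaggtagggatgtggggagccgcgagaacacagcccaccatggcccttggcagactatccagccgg
Prtn3, chr10:79879417-79879716, plus strand: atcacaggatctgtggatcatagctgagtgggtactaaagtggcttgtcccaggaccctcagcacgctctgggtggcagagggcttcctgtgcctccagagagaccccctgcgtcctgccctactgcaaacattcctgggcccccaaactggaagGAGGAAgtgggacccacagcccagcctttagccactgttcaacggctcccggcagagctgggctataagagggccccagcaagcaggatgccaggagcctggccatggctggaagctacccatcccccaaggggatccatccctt
Ctsg, chr14:56102525-56102824, minus strand: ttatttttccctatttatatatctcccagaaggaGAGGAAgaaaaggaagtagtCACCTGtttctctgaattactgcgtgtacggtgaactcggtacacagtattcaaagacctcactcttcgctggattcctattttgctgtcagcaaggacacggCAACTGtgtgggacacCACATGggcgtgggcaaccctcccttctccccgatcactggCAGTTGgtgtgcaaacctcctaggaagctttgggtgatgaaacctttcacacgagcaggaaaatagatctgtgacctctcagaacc
Csf3r, chr4:126024409-126024708, plus strand: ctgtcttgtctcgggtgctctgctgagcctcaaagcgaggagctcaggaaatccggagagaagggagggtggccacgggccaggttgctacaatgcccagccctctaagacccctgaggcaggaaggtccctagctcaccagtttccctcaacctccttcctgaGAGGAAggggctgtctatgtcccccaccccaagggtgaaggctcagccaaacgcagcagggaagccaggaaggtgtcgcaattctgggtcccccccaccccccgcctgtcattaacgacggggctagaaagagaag

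GAGGAA was found in these 5 of the 8 member promoters with an entry, against 28.3% of 32851 mouse promoters of the same length. With the gene's first base as position 0, it began at -247 and -224 in Mpo, -85 in Elane, -95 in Prtn3, -216 in Ctsg and -86 in Csf3r. An E-box was found in 3 of the 8 first entries (Ctsg, Cebpa and Gfi1), against 72.3% of all promoters. The second entry of Irf8 held 2, at -205 and -193, so 1 more gene has an E-box when every entry is read. Ctsg held 4 E-boxes, beginning at -196, -93, -77 and -36, while Mpo, Elane, Prtn3 and Csf3r held none in this window. The C/EBP half-site pair TTNNGNAA was found in 1 of the 8, Gfi1, against 40.7% of all promoters. A match describes letters in a 300-base window and not a bound site. Prtn3 and Elane are neighbours on chromosome 10, with 3137 bases and 0 annotated genes between them.

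The probes themselves are 60-mers, with positions in mm8 as the scanner files give them. The 3 below are those of the paired chromosome 10 proteases and the main probe of Cebpa, shown because the results describe how differently the first 2 behaved although their genes lie side by side.
Elane, chr10:79291147-79291206, plus strand: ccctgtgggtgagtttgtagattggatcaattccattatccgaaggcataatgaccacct
Prtn3, chr10:79284253-79285069, plus strand: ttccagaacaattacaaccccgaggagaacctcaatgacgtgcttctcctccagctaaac
Cebpa, chr7:34829102-34829161, plus strand: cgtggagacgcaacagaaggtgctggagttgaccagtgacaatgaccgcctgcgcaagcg

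The Prtn3 probe spans 817 bases of the genome and the Mpo probe (chr11:87619795-87620570, plus strand) spans 776 bases, so each crosses a splice junction. The Ctsg probe lies at chr14:55054029-55054088 on the minus strand and the Gfi1 probe at chr5:107957135-107957194 on the minus strand. The Csf3r probe lies at chr4:125546354-125546413, the main Irf8 probe at chr8:123642401-123642460 and the main Csf1r probe at chr18:61235137-61235196, all on the plus strand. No annotation in mm8 was used here, so exon and UTR positions of the probes are not stated.

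Secondary and primary recipients were compared to ask what differs in donor HSC after another round of transplantation. Mpo was lower in HSC from secondary recipients on every array. Its log2 level was 2.87 and 3.31 in KO secondary HSC and 3.01 and 2.19 in WT secondary HSC, against 6.23 and 11.62 in KO primary HSC and 4.68 and 10.23 in WT primary HSC. The secondary arrays lie close together, and the primary arrays lie above all of them, with the sparse array on top in each genotype. The group means were 3.09 ± 0.31 and 2.60 ± 0.58 in KO and WT secondary HSC, and 8.92 ± 3.81 and 7.46 ± 3.92 in KO and WT primary HSC (SD, n = 2 each). The difference of KO and WT was below the WT SD in either kind of recipient, and above the KO SD in secondary HSC alone. KO and WT arrays overlapped in both kinds of recipient. In a fit over all 8 arrays with genotype as a term, the log2 change of Mpo relative to the median probe was -4.80 (SE 1.48), with an unadjusted p of 0.00608 and an adjusted p of 0.187 by limma with Benjamini-Hochberg adjustment over all probes. Without the 2 sparse arrays it was -2.32 (SE 0.69, adjusted p = 0.213 by limma).

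The median of all tested probes moved by -0.55 in this comparison, which is why changes are given relative to it; p-values and SE refer to the change before this centring. At an adjusted p under 0.05, limma called 0 of the 12 member probes, against 0.272% of all tested probes (0.265% higher and 0.0061% lower). At an unadjusted p under 0.05, 4 member probes were lower (Mpo, Ctsg, the main Cebpa probe and 1 Csf1r probe) and 0 higher, against 10.8% of all probes lower and 6.87% higher. The groups did not overlap for 5 of the 12 probes, all lower in secondary HSC (Mpo, Ctsg, the main probes of Cebpa and Irf8, and 1 probe of Csf1r), against 10.7% of all probes lower and 4.0% higher. Across the 12 probes, 9 changes lay below the median probe and 3 above, with a median of -1.34. The count at an unadjusted p under 0.05 depends on the scaling: with the percentile taken over probes above background on all arrays, or with each array scaled to its summed signal, 1 of the 12 passed, Mpo. Under both of these scalings 9 of the 12 still lay below the median probe. Over all probes the main scaling put 3542 lower and 2253 higher at that threshold, against 413 lower and 4119 higher with the first of these and 14 lower and 6053 higher with the summed signal.

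These separations depended on the scale for all but Mpo. Expressed as a share of an array's summed signal, 1 of the 12 member probes did not overlap, Mpo, against 0.0946% of all probes lower and 8.36% higher. Its share was 0.0120 and 0.0118% on the KO secondary arrays and 0.0122 and 0.00686% on the WT secondary arrays, against 0.0917 and 0.293% on the KO primary arrays and 0.0345 and 0.0869% on the WT primary arrays. On this scale too, each primary array lay above each secondary array.

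**Figure D1:**
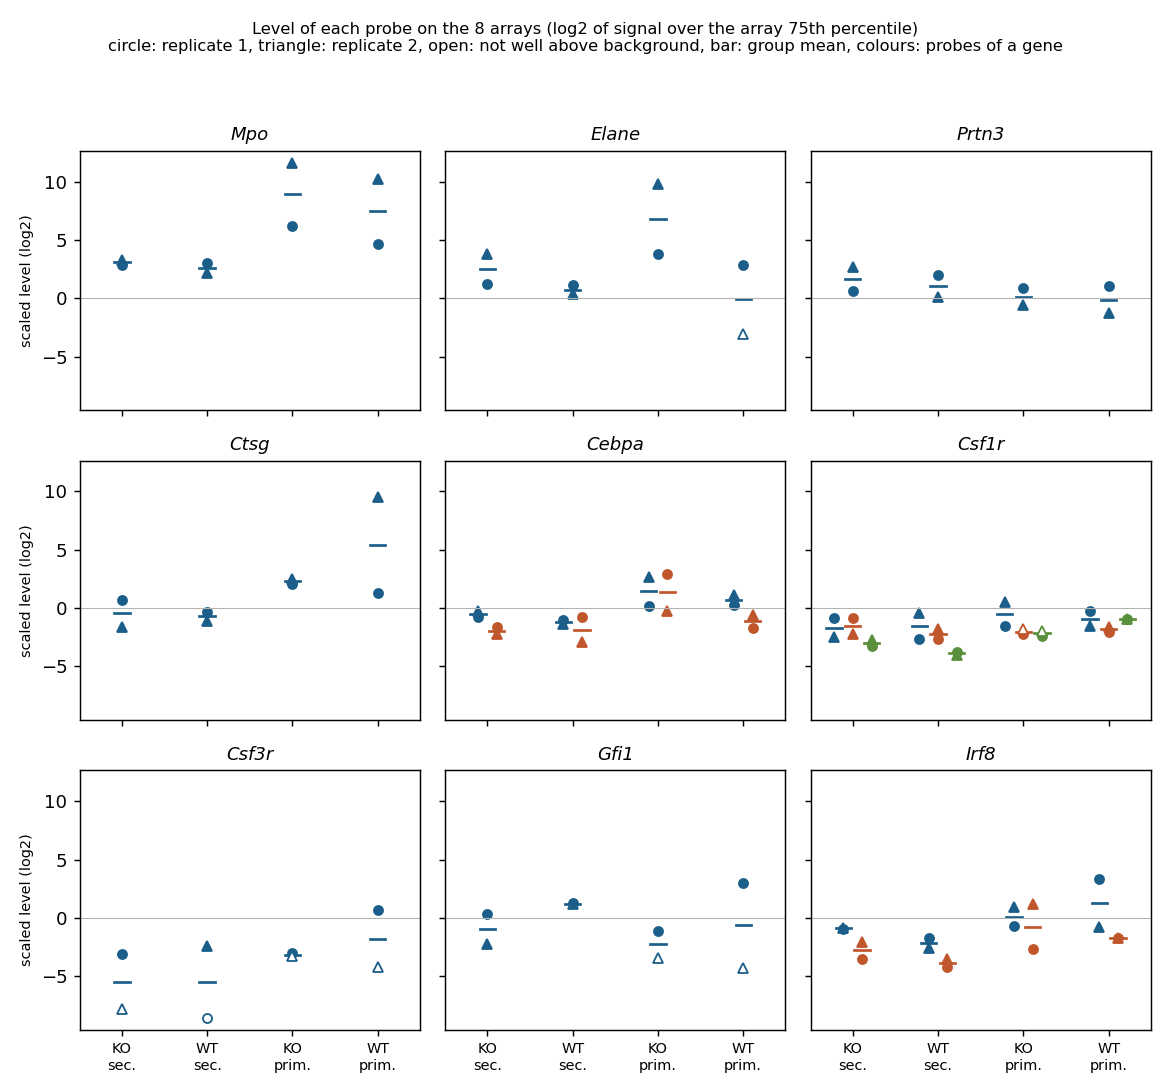
Log2 level of every member probe (vertical axis, signal over the array's 75th percentile) in KO and WT HSC from secondary and primary recipients, with 2 arrays per group as points, the group mean as a bar and open symbols for values not well above background. The 4 secondary Mpo values lie between 2.19 and 3.31, all below the lowest primary value of 4.68. Replicates lie far apart for Mpo and Elane in both KO and WT primary HSC, and for Ctsg and Gfi1 in WT primary HSC.

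Genes of mature neutrophils were also lower in secondary HSC as a summed share, though not each gene alone. The levels of Cd177 and Chi3l3 overlapped between secondary and primary arrays. Before scaling, Ltf and Chi3l3 on the sparse WT primary array and Mmp8 and Lcn2 on the sparse KO primary array were dimmer than on any secondary array. So was Cd177 on both sparse arrays. Lcn2 was not well above background on the sparse KO array. The 10 neutrophil markers summed to 0.0029 to 0.0032% of the signal in KO secondary HSC and 0.0013 to 0.0018% in WT secondary HSC, against 0.173 to 1.16% in KO primary HSC and 0.290 to 0.709% in WT primary HSC. Limma called 2 of the 10 lower in secondary HSC, S100a8 and Retnlg (adjusted p = 0.049 each), against 0.0061% of all probes. These were the only 2 probes called lower. Both lay just under the threshold, and limma called 0 probes when any single array was left out. S100a8 was well above background on 1 of the 4 secondary arrays, Retnlg on 2 and Lcn2 on 0. S100a8 and Lcn2 were therefore tested on the strength of their primary signal, while Retnlg also met the filter in KO secondary HSC. No size is given for the difference of these genes. The summed share of the 16 HSC markers was 0.107 to 0.112% in KO secondary HSC and 0.129 to 0.140% in WT secondary HSC, against 0.0103 to 0.0576% in KO primary HSC and 0.0508 to 0.186% in WT primary HSC. Monocyte and macrophage markers overlapped, at 0.00709 to 0.0179% on secondary arrays against 0.00995 to 0.0206% on primary arrays. The part of other cells in the level of Mpo was not tested, and in such bulk samples fewer cells of a type and less RNA per cell cannot be told apart.

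**Figure D2:**
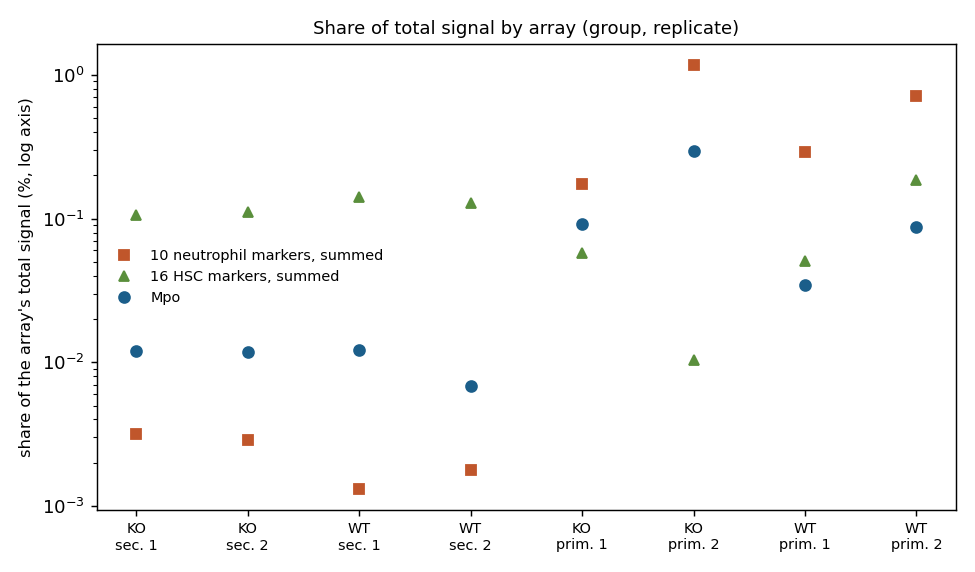
Share of each array's summed signal (percent, log axis) taken by Mpo, by 10 summed neutrophil markers and by 16 summed HSC markers, 1 point per array. Mpo and the neutrophil markers are both lower on all 4 secondary arrays than on the 4 primary arrays, Mpo at 0.00686 to 0.0122% against 0.0345 to 0.293%, and the HSC markers overlap.

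The 3 serine protease genes did not share one pattern. Ctsg had levels of 0.69 and -1.59 in KO secondary HSC and -0.31 and -1.11 in WT secondary HSC, against 2.09 and 2.53 in KO primary HSC and 1.27 and 9.52 in WT primary HSC. All primary arrays lay above all secondary arrays, and the sparse WT primary array stood far above the other. The change over both genotypes was -3.88 (SE 1.70, adjusted p = 0.265 by limma), and -1.97 without the 2 sparse arrays.

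Elane had levels of 1.25 and 3.79 in KO secondary HSC and 1.13 and 0.32 in WT secondary HSC, against 3.77 and 9.81 in KO primary HSC and 2.86 and -3.05 in WT primary HSC. The last value, on the sparse WT array, was not well above background, so that 1 of 2 arrays measured Elane in WT primary HSC. The groups overlapped, and the change was -1.17 (SE 1.85, adjusted p = 0.629 by limma). Its value was 1.62 within WT and -3.88 within KO (SE 2.46 each), and neither was called. The WT value rests on the sparse WT array. Without the 2 sparse arrays the change was -1.40, with -1.62 within WT and -1.17 within KO, each from 1 primary array.

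Prtn3, next to Elane on the chromosome, had levels of 0.62 and 2.64 in KO secondary HSC and 2.03 and 0.12 in WT secondary HSC, against 0.87 and -0.60 in KO primary HSC and 1.01 and -1.27 in WT primary HSC. The sparse arrays were the lowest here, the opposite of Mpo, and the groups overlapped. The change was 1.90 (SE 0.91, adjusted p = 0.436 by limma), and 0.71 without the 2 sparse arrays. Over the 8 arrays, the levels of Elane and Prtn3 had a Pearson r of 0.112, those of Ctsg and Mpo 0.761 and those of Ctsg and Prtn3 -0.758. These describe 8 arrays that include the 2 sparse ones.

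The signals before scaling show how far apart the sparse arrays stood for the enzymes. On the sparse KO primary array, the processed signal was 60649 for Mpo, 17300 for Elane, 12.7 for Prtn3 and 111 for Ctsg. On the other KO primary array the same probes gave 26510, 4827, 645 and 1508. On the sparse WT primary array they gave 41757 for Mpo, 4.2 for Elane, 14.5 for Prtn3 and 25586 for Ctsg, and on the other WT primary array 8193, 2313, 642 and 770. Elane was far brighter on the sparse KO array than on the sparse WT array, where it was not well above background, and Ctsg was far brighter on the sparse WT array. The other enzyme values on the sparse arrays, low ones of Prtn3 included, were marked well above background. The 2 arrays of a group differed by a median of 2.17 log2 units over the 12 tested member probes in KO primary HSC and 1.78 in WT primary HSC, against 1.79 and 1.62 over all probes. In secondary HSC the median was 1.40 in KO and 0.81 in WT, against 1.22 and 0.91 over all probes. The widest gaps were 6.04 for Elane in KO primary HSC and 8.25 for Ctsg in WT primary HSC.

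Among the regulators, Cebpa followed Mpo most closely on the scaled level, with an r of 0.948 over the 8 arrays, sparse ones included. Before scaling, Mpo was brighter on the sparse array of each genotype than on the other primary array. Cebpa was dimmer there, at 125 (KO) and 74.2 (WT), against 410 and 378 on the other KO and WT primary arrays. Its main probe had levels of -0.74 and -0.25 in KO secondary HSC and -1.06 and -1.39 in WT secondary HSC, against 0.22 and 2.69 in KO primary HSC and 0.25 and 1.09 in WT primary HSC. The secondary arrays were all lower, by a change of -1.37 (SE 0.78, adjusted p = 0.271 by limma) that was -0.80 without the 2 sparse arrays. The other Cebpa probe, in which the groups overlapped, gave -1.44 (SE 1.03, adjusted p = 0.331 by limma), and -2.23 without the sparse arrays; the 2 probes had an r of 0.378 with each other.

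Irf8, the factor of monocytes and dendritic cells, had main-probe levels of -0.92 and -0.85 in KO secondary HSC and -1.75 and -2.60 in WT secondary HSC, against -0.72 and 0.94 in KO primary HSC and 3.37 and -0.79 in WT primary HSC. The groups separated narrowly, since the highest secondary value was -0.85 and the lowest primary value -0.79. The change was -1.68 (SE 1.09, adjusted p = 0.312 by limma) for this probe and -1.53 (SE 0.96, adjusted p = 0.294 by limma) for the other. Without the 2 sparse arrays these were -2.56 and -0.80.

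Gfi1, the repressor that favours neutrophils, had levels of 0.30 and -2.25 in KO secondary HSC and 1.31 and 1.16 in WT secondary HSC, against -1.08 and -3.39 in KO primary HSC and 2.98 and -4.25 in WT primary HSC. Neither sparse array was well above background for it, and the groups overlapped. The change of 2.11 (SE 1.51, adjusted p = 0.587 by limma) became -0.53 without the 2 sparse arrays, so no direction is given.

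The receptor genes did not give a uniform picture. The main Csf1r probe overlapped between secondary and primary HSC, with a change of -0.34 (SE 0.89, adjusted p = 0.601 by limma). Its levels were -0.88 and -2.46 in KO secondary HSC and -2.68 and -0.38 in WT secondary HSC, against -1.51 and 0.51 in KO primary HSC and -0.28 and -1.56 in WT primary HSC. A probe farther along the gene, at chr18:61256099-61256158, was lower on all secondary arrays, at -3.25 and -2.69 in KO and -3.73 and -4.00 in WT, against -2.38 and -1.95 in KO primary HSC and -0.94 and -0.96 in WT primary HSC. One of those 8 values, on the sparse KO array, was not well above background. The change was -1.31 (SE 0.74, adjusted p = 0.269 by limma), while the remaining probe gave 0.61 (SE 0.71, adjusted p = 0.971 by limma). Pairs of Csf1r probes had an r of 0.0423 to 0.453 over the arrays, so the 3 probes did not tell 1 story.

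Csf3r was well above background on 4 of 8 arrays, 1 in each group, and was not tested. Its levels on those were -3.08 in KO secondary HSC, -2.41 in WT secondary HSC, -3.05 in KO primary HSC and 0.66 in WT primary HSC. The signals of the other 4 arrays were between 1.9 and 2.2, which gives a bound and no level.

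**Figure D3:**
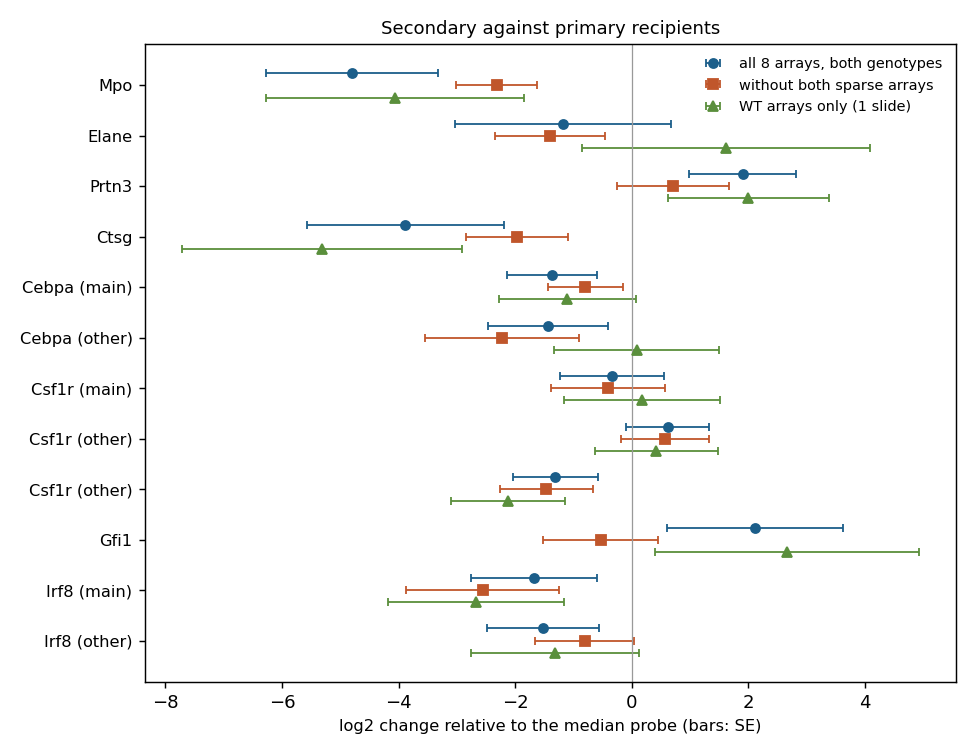
Log2 change of each tested member probe in secondary against primary recipients, relative to the median probe, with the SE as bars, for all 8 arrays, without the 2 sparse arrays and for the 4 WT arrays of 1 slide. Mpo lies at -4.80, -2.32 and -4.07 in the 3 settings, whereas Elane, Gfi1, the main Csf1r probe and the second Cebpa probe change side between settings.

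Within WT the comparison of recipients lay on 1 slide. There the log2 difference was -4.07 (SE 2.21, adjusted p = 0.407) for Mpo, -5.31 (SE 2.40, adjusted p = 0.389) for Ctsg and -2.67 (SE 1.51, adjusted p = 0.402) for Irf8, by limma. Without the sparse WT array, which leaves 1 WT primary array, assumed to vary like the other groups, these were -1.57, -1.47 and -5.03. With any 1 array left out they ran over -6.85 to -1.57 for Mpo, -9.45 to -1.47 for Ctsg and -5.03 to -0.60 for Irf8. Within KO, where recipient and slide cannot be told apart, the values were -5.44 (SE 2.21, adjusted p = 0.753) for Mpo, -2.37 (SE 2.40, adjusted p = 0.796) for Ctsg and -0.60 (SE 1.51, adjusted p = 0.885) for Irf8. Leaving out 1 array moved these over -7.93 to -3.06 for Mpo, -3.08 to -1.44 for Ctsg and -1.23 to -0.08 for Irf8. Limma called 0 of the 12 member probes in either genotype and 0.0% of all probes. At an unadjusted p under 0.05, 2 member probes were lower within WT, Ctsg and 1 of Csf1r, against 5.43% of all probes, and 1 within KO, Mpo, against 2.22%. Within WT the groups separated for 6 member probes, all lower, against 36.4% of all probes lower and 18.5% higher. Within KO they also separated for 6, all lower, against 25.4% lower and 14.0% higher.

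The wider myeloid pathway, 53 genes matched out of 56 listed, was read beside the members. Of the 49 tested, limma called 0 in secondary against primary HSC, 34 lay below the median probe and 15 above, and their median was -0.70. At an unadjusted p under 0.05, 8 were lower and 0 higher, against the 10.8% lower and 6.87% higher of all probes, and 9 did not overlap, all lower, against 10.7%. The lowest p-values were those of Maf, a factor of macrophages (-1.93, SE 0.91, adjusted p = 0.264), Cebpg, a C/EBP family member (-1.65, SE 0.85, adjusted p = 0.268), and Csf2, which encodes GM-CSF (-1.59, SE 0.85, adjusted p = 0.270). Next came Cx3cr1, the fractalkine receptor of monocytes (-1.42, SE 0.78, adjusted p = 0.270), and Junb, an AP-1 subunit (-2.25, SE 1.12, adjusted p = 0.270), all by limma.

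KO and WT HSC were compared within each kind of recipient, the comparison the series is named for. No member was called. In secondary recipients limma called 0 of 12 member probes and 0.0% of all probes; in primary recipients it likewise called 0 of 12 and 0.0%. At an unadjusted p under 0.05, secondary recipients gave 0 member probes against 5.92% of all probes. In primary recipients 1 member probe passed, Elane, higher in KO, against 1.87% of all probes. The interaction of genotype and recipient gave 0 member probes against 3.93%, and limma called 0 of 12 and 0.0% of all probes there.

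Elane was higher in KO on both arrays in either kind of recipient. From the levels given above, the change of KO against WT was 1.38 (SE 2.46, adjusted p = 0.966 by limma) in secondary HSC and 6.58 (SE 2.46, adjusted p = 0.9998 by limma) in primary HSC. The primary value rests on the sparse arrays, which hold the highest and the lowest Elane level of the 8, and was 0.75 (SE 1.63) without them. Over both kinds of recipient it was 4.04 (SE 1.85, adjusted p = 0.867 by limma), the groups overlapped, and the interaction of genotype and recipient was -5.31 (SE 3.48, adjusted p = 0.993 by limma).

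Gfi1 was lower on both KO arrays than on both WT arrays in secondary HSC, by -2.62 (SE 2.26, adjusted p = 0.953 by limma). In primary HSC the change was -1.91 (SE 2.26, adjusted p = 0.9998 by limma), the arrays overlapped, and leaving out the sparse pair gave -4.22. For the main Irf8 probe the value was 0.88 in secondary HSC and -1.49 in primary HSC (SE 1.51 each). It was -4.26 (SE 1.07) in primary HSC without the sparse arrays, which leaves 1 array per genotype, assumed to vary like the secondary groups. The other Irf8 probe gave 0.64 in secondary HSC and 0.67 in primary HSC (SE 1.45 each), so the probes differed in direction in primary HSC. Mpo gave 0.08 in secondary and 1.16 in primary HSC (SE 2.21 each), and Prtn3 gave 0.14 and -0.05 (SE 1.38 each). Ctsg gave -0.15 and -3.40 (SE 2.40 each), the second of which was 0.66 without the sparse arrays. Cebpa gave 0.32 and 0.47 (SE 1.18 each) with its main probe, and -0.49 and 2.17 (SE 1.42 each) with the other.

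In secondary HSC, the groups did not overlap for 4 member probes higher in KO (Elane, the main probes of Cebpa and Irf8, and 1 probe of Csf1r), against 31.9% of all probes, and for 1 lower (Gfi1), against 13.4%. In primary HSC, 2 were higher without overlap (Elane and the other Cebpa probe), against 17.1%, and 1 was lower (Csf1r), against 8.56%. Over both kinds of recipient limma called 0 of 12, 1 passed an unadjusted p under 0.05 (Elane, higher, against 3.34% of all probes), and 0 of 12 separated, against 1.28% of all probes higher and 0.467% lower. None of these counts stands clear of its background. Of the wider pathway's 49 genes, limma called 0 in each comparison of genotypes. Of them, 26 lay above the median probe in secondary HSC and 22 in primary HSC, and the median change was 0.08 and -0.30. At an unadjusted p under 0.05, 1 was higher and 1 lower in secondary HSC, against 3.89% of all probes higher and 2.03% lower, and likewise 1 and 1 in primary HSC, against 1.87% and 1.8%.

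**Figure D4:**
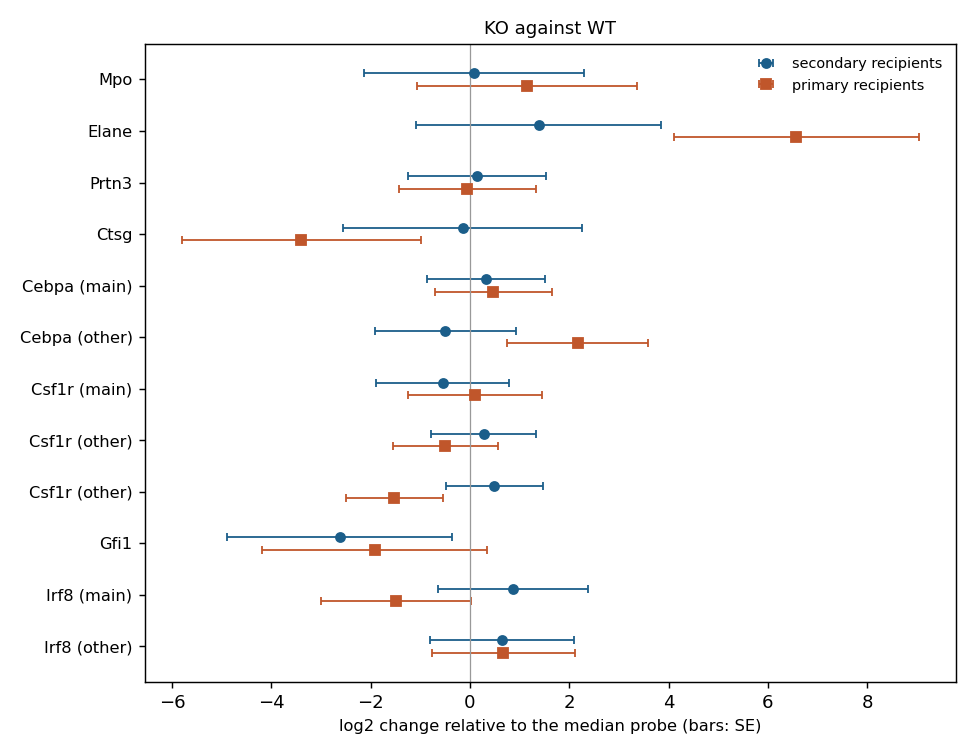
Log2 change of each tested member probe in KO against WT HSC, relative to the median probe, with the SE as bars, for secondary and primary recipients. Most bars cross 0; Elane in primary HSC, at 6.58, stands farthest out and falls to 0.75 without the 2 sparse arrays.

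Genes of similar pattern were sought among 16300 by the Pearson r of log2 level over the 8 arrays. The closest to Mpo were Ifrd2 (0.997), Qprt (0.997) and Hspb7 (0.992). Closest to Cebpa was Hes2 (0.998), to Ctsg Rrnad1 (0.995), to Elane Cphx1 (0.979) and to Prtn3 Nif3l1 (0.978). For Irf8 it was Adam18 (0.983), for Csf1r Oosp3 (0.984) and for Gfi1 Rbm34 (0.956). No closest gene is named for Csf3r, because 4 arrays alone gave it a level and the remaining values follow each array's scaling. Gfi1 lacked a clear signal on both sparse arrays, and Elane lacked one on the sparse WT array. The r of Gfi1 and that of Elane therefore rest in part on values that give a bound and no level. The 8 arrays include the 2 sparse ones and share their scaling, and the r is given as a description alone.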

How the data were processed

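Per the file headers, the authors' scanner output is linear intensity per spot, read by Agilent Feature Extraction 10.5.1.1, with a background-subtracted processed signal and quality marks. The deposited series matrix holds each array's processed intensity as a ratio to that array's own median (each column had a median of 1), found by setting it against the scanner values; it served as an alternative. No spot was saturated. Control spots and outlier-marked spots were left out and spots of a probe were averaged, leaving 41048 of 41174 probes. The value was log2 of processed intensity minus the array's 75th percentile. The test was lmFit and eBayes of limma 3.58.1 (R 4.3.3) in a fit of 4 groups, or of genotype plus recipient, with Benjamini-Hochberg adjustment over 32775 probes and a threshold of 0.05; values not well above background entered the fit as measured. The fitting code was tested on simulated data with a smaller spread than these arrays, which checks the code and not the precision of these fits. The precision is limited by 2 arrays per group. Genes were named from the files, and 24375 probes through their accession in a RefSeq table of GRCm38.p6.

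Members, gene lists and tests were chosen with earlier results of these data known, including that 2 arrays are sparse. Named genes are all members, the 5 pathway genes of lowest p, 3 genes of most similar pattern per member (the text prints some of them) and called markers. The pathway list held 56 genes of myeloid regulators, receptors and granule or surface proteins. Lists of B cell, T and NK cell, erythroid, megakaryocyte, and mast cell and basophil markers were counted beside those of HSC, neutrophils and monocytes. Alternatives covered background correction, scaling, filters, probes per gene, left-out arrays, a replicate block and a slide block; scaling to summed signal was chosen after seeing the data.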

Additional observations from a re-analysis of the deposited data

Results flagged for a closer look

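One Csf1r probe, at the 3′ end of those measured, differed between KO and WT in opposite directions in the 2 kinds of recipient: KO lay above WT on both secondary arrays and below WT on both primary arrays. The difference of the genotype effects, secondary minus primary, was 1.89 on the log2 scale (SE 1.38, adjusted p = 0.993 by limma), so it did not pass the test. One of the KO primary values was not well above background.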

How the results depend on the processing

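No member probe was called under any of the 19 alternatives (1475 member fits, lowest adjusted p 0.062 by limma, for Mpo with quantile normalization). The direction of Mpo in secondary against primary recipients held in all, at -3.67 to -5.98 with 1 array left out and -2.32 to -4.80 otherwise, with an adjusted p between 0.062 and 0.415. Of 434 pairs of a member value and an alternative, 399 kept direction and side of the threshold and 35 reversed. The 89 probes called in secondary against primary recipients became 1 with normexp, 543 with quantile normalization, 866 with the percentile over probes above background on all arrays and 977 with summed signal scaling, and 0 with the series matrix, no filter, probes above background on all arrays, 1 probe per gene, without both sparse arrays, and with the slide block. With the slide block the recipient term came from the WT arrays alone, so that setting repeats the comparison within WT. Leaving out 1 array gave 0 to 0 calls in secondary against primary recipients. In KO against WT, primary recipients, the 0 calls became 0 to 627, the highest without WT primary replicate 1; the cause was not tested. With the replicate block the 89 calls became 0; same-numbered arrays are not shown to be paired, since their deviations from group means had correlations of -0.0387 to 0.155 over probes.

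Reversals outside left-out arrays were, in primary KO against WT, Prtn3 at 0.13 (normexp) and 0.0066 (quantile), Csf1r at -0.063 (normexp) and -0.031 (no filter), and, without both sparse arrays, Ctsg at 0.66, Cebpa at -0.19 and Csf1r at -1.40. In secondary KO against WT, Ctsg was 0.36 (quantile). In secondary against primary recipients, Elane was 1.62 (slide block), Csf1r 0.058 (normexp), 0.41 (probes above background on all arrays) and 0.18 (slide block), and Gfi1 -0.53 without both sparse arrays. With 1 array left out, primary KO against WT ran over -1.39 to 3.63 for Mpo, -1.49 to 1.32 for Prtn3, -7.30 to 0.43 for Ctsg, -0.13 to 1.38 for Cebpa, -0.84 to 0.96 for Csf1r, -5.83 to 1.92 for Gfi1 and -3.88 to 0.81 for Irf8. Secondary KO against WT ran over -0.39 to 0.48 for Mpo, -0.88 to 1.17 for Prtn3, -1.26 to 0.9986 for Ctsg and -1.71 to 0.53 for Csf1r. Secondary against primary ran over -2.98 to 0.49 for Elane and -0.86 to 0.069 for Csf1r.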

Other observations

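Markers of other blood cells were counted beside the members in secondary against primary HSC, and limma called 0 in each list. Of 8 B cell markers, 7 lay below the median probe (median -0.69), and of 8 erythroid markers 7 did (median -0.51). Of 7 tested T and NK cell markers 5 lay below it (median -0.85), and of 6 tested mast cell and basophil markers 5 did (median -0.64). Of 8 megakaryocyte markers 3 lay below it (median 0.59). At an unadjusted p under 0.05, the B cell list had 3 lower, the T and NK cell list 2, the mast cell and basophil list 2, the erythroid list 1 and the megakaryocyte list 1, which also had 1 higher, against 10.8% of all probes lower and 6.87% higher. Among the HSC markers, Hlf, a transcription factor of stem cells, was called higher in secondary HSC (adjusted p = 0.049 by limma), against 0.265% of all probes. The call was lost when any single array was left out. Hlf was well above background on 4 secondary and 2 primary arrays. It was therefore tested on the strength of its secondary signal, and no size is given for the difference.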
